A study of Homo sapiens with 6 samples.

Results

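Mitochondrial ribosomal protein genes were examined in Ju77 cells, an established line from human malignant mesothelioma, as 3 arrays of parental cells and 3 arrays of cells resistant to ADI-PEG20. ADI-PEG20 is pegylated arginine deiminase, an enzyme that removes arginine from outside the cell. Both groups come from one line each, collected the day after plating without further treatment named, and the labels state neither how resistance was obtained nor whether the repeats were separate cultures. Resistance and other differences between the lines therefore cannot be told apart, and the p-values here measure only the spread among these 6 samples, which could be technical. Members were all probes whose gene symbol is MRPL or MRPS followed by a number and at most 1 letter. The rule found 110 of 47225 probes, which stand for 76 of 20044 named genes, 48 of the large (MRPL) and 28 of the small (MRPS) subunit. MRPL27 also fits the rule in the current gene table, but no probe carried it as its single gene name, so it could not be tested.

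The mitochondrial ribosome translates the few messages of the mitochondrial genome, which encode core subunits of the respiratory chain and the ATP synthase. All of its proteins are encoded in the nucleus, made in the cytosol and imported. The large subunit holds the peptidyl transferase centre and the exit tunnel, and the small subunit binds the message and reads its codons. Many of the proteins descend from those of the bacterial ribosome, and the others are specific to mitochondria.

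Mitochondrial ribosomal protein transcripts were lower in the resistant cells in both subunits. Of the 76 genes, 37 were called lower and 1 higher at a limma adjusted p under 0.05 over all 10672 genes tested, and 38 were not called, where 45.3% of all genes were called in either direction. That is 48.7% of the members lower, where 23.0% of all genes were called lower, and 1.32% higher, where 22.3% of all genes were called higher. Members were on average brighter than all genes tested on every array. On parental replicate 1 the mean log2 level was 10.07 for the large and 9.95 for the small subunit, against 8.09 for all genes. The shares were not compared at equal brightness. The median log2 difference of the members (resistant minus parental, here and below) was -0.22, with quartiles of -0.40 and -0.08, where all genes had a median of 0.00 (-0.00394) and quartiles of -0.27 and 0.27. The shifts were small for each gene, from 1.17-fold to 1.99-fold among those called lower, and standard errors ran from 0.07 to 0.17 on the log2 scale. In bulk RNA, fewer cells of a type and less RNA per cell cannot be told apart.

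Arrays and cell identity were checked first. Between 19024 and 20113 probes were detected per array, at a detection p under 0.05, and correlations of kept probes were at least 0.992 within a group and at most 0.970 between groups. Of 9 mesothelial markers 8 were detected on all parental and 7 on all resistant arrays, among them WT1, MSLN and CALB2 on both. The markers differed in level between the lines: CALB2 was 6.67-fold higher in the resistant cells, PDPN was 5.22-fold lower and detected on 1 of 3 resistant arrays, and LRRN4, BNC1 and KRT19 were also called lower. Their part in the results was not tested. Of the other cell types, 0 of 7 leukocyte, 0 of 5 endothelial and 0 of 5 fibroblast markers passed the detection filter, and of 5 lung epithelial markers only NKX2-1 did. All 76 members passed the detection filter and the probe that represents each was detected on all 6 arrays, so that no member entered through one group alone. The precision of every value is limited by the 3 arrays per group.

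Promoter sequences are shown for the 4 members with the largest falls, MRPS17, MRPS24, MRPL32 and MRPS22, and for MRPL40, the only member called higher, so that the members at both ends can be compared. They are the 250 bases before the gene start from RefSeq (GRCh38.p14), written 5′ to 3′ on the strand of the gene. Capitals mark exact matches, on either strand, to any of 4 motifs of factors known to act on genes of mitochondrial proteins: CCGGAAG (the ETS core, read by GABPA), GCGCATGC (the NRF1 core), CACGTG (the E-box, read by MYC) and AAGATGGC (YY1). No motif overlapped another in these 5 windows.
MRPS17 (chr7:55951627-55951876, + strand): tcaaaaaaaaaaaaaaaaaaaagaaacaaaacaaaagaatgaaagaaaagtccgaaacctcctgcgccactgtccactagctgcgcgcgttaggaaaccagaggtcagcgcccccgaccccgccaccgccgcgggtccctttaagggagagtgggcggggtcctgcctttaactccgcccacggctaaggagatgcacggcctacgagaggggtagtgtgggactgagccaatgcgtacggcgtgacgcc
MRPS24 (chr7:43869518-43869767, - strand): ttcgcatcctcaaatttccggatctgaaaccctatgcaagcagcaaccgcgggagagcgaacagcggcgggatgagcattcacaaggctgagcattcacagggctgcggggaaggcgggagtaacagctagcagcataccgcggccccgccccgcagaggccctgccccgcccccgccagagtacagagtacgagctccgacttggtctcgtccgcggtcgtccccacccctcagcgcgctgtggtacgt
MRPL32 (chr7:42932126-42932375, + strand): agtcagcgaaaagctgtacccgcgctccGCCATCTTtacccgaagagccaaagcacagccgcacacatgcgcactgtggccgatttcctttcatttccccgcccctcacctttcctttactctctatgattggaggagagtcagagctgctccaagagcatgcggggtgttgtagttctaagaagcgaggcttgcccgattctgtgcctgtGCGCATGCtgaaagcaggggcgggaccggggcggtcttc
MRPS22 (chr3:139343744-139343993, + strand): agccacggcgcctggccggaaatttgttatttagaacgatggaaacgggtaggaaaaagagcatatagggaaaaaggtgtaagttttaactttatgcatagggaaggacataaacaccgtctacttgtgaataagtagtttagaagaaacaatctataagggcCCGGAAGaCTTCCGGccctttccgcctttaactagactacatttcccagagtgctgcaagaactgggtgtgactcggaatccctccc
MRPL40 (chr22:19432295-19432544, + strand): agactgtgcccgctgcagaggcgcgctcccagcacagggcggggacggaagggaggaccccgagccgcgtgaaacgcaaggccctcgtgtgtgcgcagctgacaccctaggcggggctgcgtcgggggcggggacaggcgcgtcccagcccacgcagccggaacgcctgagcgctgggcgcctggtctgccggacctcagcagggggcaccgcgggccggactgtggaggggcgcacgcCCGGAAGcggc

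The ETS core was the most frequent of the 4 motifs among member promoters. RefSeq windows matched 68 of the 76 members, and 32.4% of them held the core, where 16.6% of the 8683 matched genes tested and 8.82% of all 27305 promoters held it. It stood in 35.3% of the 34 matched members called lower and in 27.3% of the 33 not called. By subunit it stood in 31.7% of 41 large and 33.3% of 27 small subunit promoters. MRPS22 holds it on both strands, MRPL40 once, and MRPS17 and MRPS24, which fell most, hold none of the 4 motifs. The YY1 motif was in 7.35% of member promoters and 1.82% of those of genes tested, and the E-box in 8.82% and 9.12%. For NRF1 the shares depended on the letters. The core was in 8.82% of member promoters (6 of 68) and 5.03% of those of genes tested. Its longer form with GC added at the 3′ end, which was counted first, was in 1.47% (1 of 68) and 2.06%. The longer form rests on 1 member promoter, too few to give a direction. MRPL32 holds the core and the YY1 motif once each. The median GC content was 60.4% for members and 64.8% for genes tested. A match is a description of letters and says nothing about binding.

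The large and the small subunit had similar counts and medians, while their means per array moved apart. Of 48 large subunit genes 23 were lower and 1 higher (47.9% lower), with a median log2 difference of -0.21 and quartiles of -0.39 and -0.09. Of 28 small subunit genes 14 were lower and none higher (50% lower), with a median of -0.23 and quartiles of -0.42 and -0.07. The medians lay 0.0162 apart. On single arrays the large minus the small subunit's median level had an SD of 0.0346 within groups, which is another quantity and no yardstick for 0.0162. The difference between the subunits was not tested, since genes are not replicates. The means over genes gave another picture. The mean log2 level of the large minus that of the small subunit genes was 0.127, 0.168 and 0.107 on the parental arrays and 0.233, 0.191 and 0.171 on the resistant arrays. These groups did not overlap. By the mean the small subunit lay further down in the resistant cells, and by the median the subunits lay close. The means include the members at the ends, MRPS17 and MRPS24 in the small subunit (-0.99 each) and MRPL40 in the large (0.68). How much of the gap in means comes from those genes was not tested, so it need not hold for the small subunit as a whole. Below 0 lay 41 of the 48 large and 24 of the 28 small subunit genes. On the arrays as deposited, before any correction, the 76 representing probes carried 0.588%, 0.577% and 0.598% of the summed intensity in parental replicates 1 to 3, against 0.471%, 0.467% and 0.467% in the resistant replicates. The groups did not overlap in this share.

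**Figure D1:**
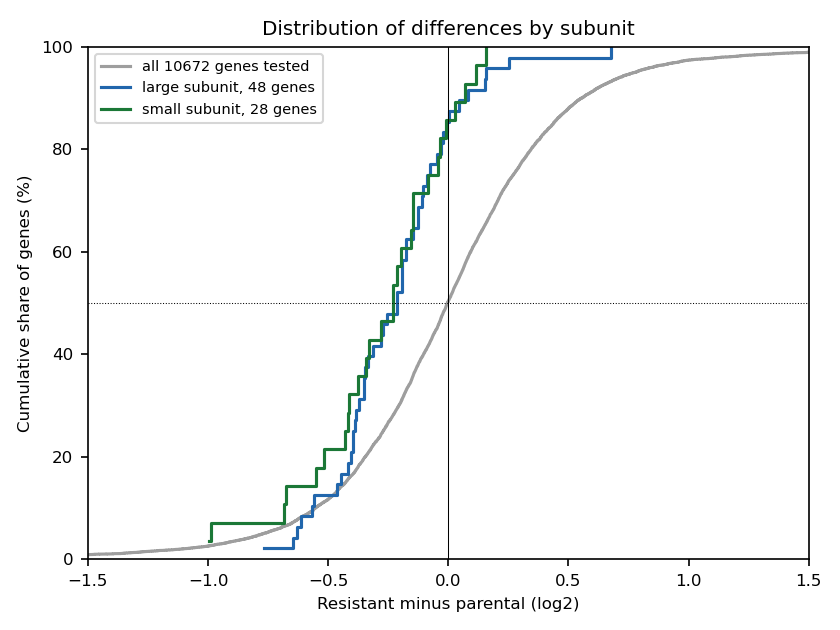
Cumulative share of genes (vertical axis, %) against the log2 difference, resistant minus parental (horizontal axis), for 48 large subunit genes, 28 small subunit genes and all 10672 genes tested. The curves of both subunits lie close to each other, cross the 50% line at -0.21 and -0.23 and stand left of the curve of all genes over most of their range.

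Placing MRPS30 and MRPS18A, which carry small subunit names but sit in the large subunit of the assembled ribosome, with the large subunit left the counts at 24 of 50 and 13 of 26 lower. MRPS30 was among the members called lower, at -0.42 (adjusted p = 0.00457, limma). Its values were 10.73, 10.80 and 10.76 on the parental and 10.23, 10.43 and 10.38 on the resistant arrays, without overlap. MRPS18A (-0.15, 95% interval from -0.49 to 0.20) was not called, and its resistant values spread from 7.93 to 8.52.

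Counts by the ancestry of the proteins were close to each other. Among large subunit proteins with a bacterial homologue 14 of 28 were lower, with a median of -0.24, and among those specific to mitochondria 10 of 22 were lower and 1 higher, with a median of -0.20. In the small subunit 8 of 16 with a bacterial homologue were lower (median -0.23) and 5 of 10 specific to mitochondria (median -0.25). These classes place MRPS30 and MRPS18A in the large subunit. Each class lay at about the same share, above the 23.0% of all genes.

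**Figure D2:**
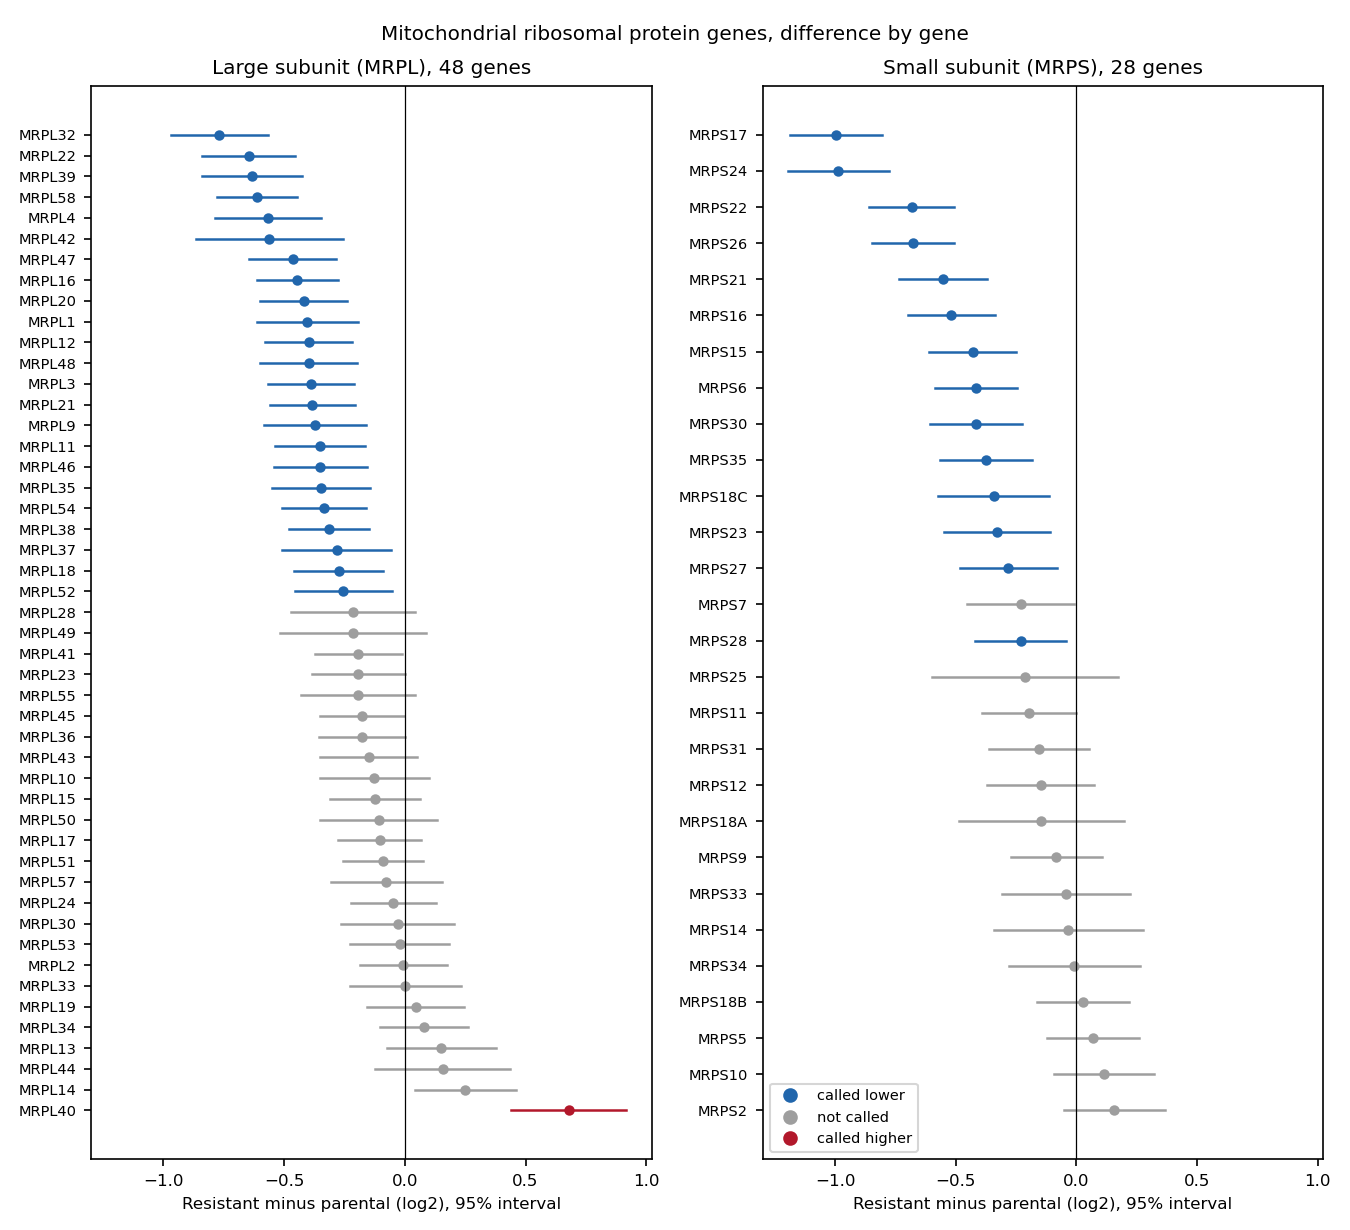
Log2 difference, resistant minus parental (horizontal axis), of every member, with its 95% interval from limma (bars) and the call (colour), for 48 large subunit genes on the left and 28 small subunit genes on the right. Both columns run from clear falls at the top to values near 0, and MRPL40 is the single gene called higher.

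The largest falls in the small subunit were those of MRPS17 and MRPS24. MRPS17, a homologue of a bacterial small subunit protein that binds ribosomal RNA, stood at 11.12, 11.12 and 11.16 on the parental arrays and at 10.20, 10.19 and 10.02 on the resistant arrays. Its log2 level fell by 0.99 (SE 0.08, 1.99-fold, limma adjusted p = 6.10e-05), and the groups lay far apart with tight repeats. MRPS24, the homologue of a bacterial protein at the entry of the message channel, read 11.86, 11.78 and 11.99 in the parental cells and 10.89 ± 0.09 (mean and SD, n = 3) in the resistant cells. All resistant values were below all parental ones, and it fell by 0.99 (SE 0.09, 1.98-fold, limma adjusted p = 1.01e-04).

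MRPS22 and MRPS26, both specific to mitochondria, followed. MRPS22, a gene whose loss of function causes combined respiratory chain deficiency in people, went from 11.41, 11.36 and 11.35 to 10.69, 10.75 and 10.62. It fell by 0.68 (SE 0.08, 1.61-fold), and the gap between the groups was several times the spread within them. MRPS26 went from 9.58, 9.56 and 9.60 to 8.91, 8.85 and 8.95, again without overlap, and fell by 0.68 (SE 0.07, 1.60-fold). MRPS21, of bacterial descent, fell by 0.55 (SE 0.08, 1.47-fold). For MRPS16, also of bacterial descent and another gene of combined respiratory chain deficiency, the fall was 0.52, a log2 difference of -0.52 (SE 0.08, 1.43-fold). The limma adjusted p of these 4 genes ran from 2.31e-04 for MRPS26 to 0.00115 for MRPS16.

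MRPL32 led the large subunit. It is a homologue of a bacterial protein that is cut to its mature form by the m-AAA protease of the inner membrane before it joins the ribosome. It went from 11.12, 11.21 and 11.08 on the parental arrays to 10.45, 10.41 and 10.25 on the resistant arrays and fell by 0.77 (SE 0.09, 1.70-fold, limma adjusted p = 2.85e-04). The groups did not overlap.

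MRPL22, which lines the exit tunnel, read 11.47, 11.34 and 11.43 in the parental and 10.68, 10.86 and 10.76 in the resistant cells, a fall of 0.65 (log2 difference -0.65, SE 0.08, 1.57-fold). MRPL39, specific to mitochondria, read 10.75, 10.84 and 10.87 against 10.23, 10.05 and 10.29 (log2 difference -0.63, SE 0.09, 1.55-fold). MRPL58, also called ICT1, is a peptidyl-tRNA hydrolase built into the large subunit that can free stalled ribosomes. Its parental values of 10.52, 10.53 and 10.54 were nearly equal, and its resistant values were 9.97, 9.90 and 9.88 (log2 difference -0.61, SE 0.07, 1.53-fold). All 3 genes were separated between the groups, with limma adjusted p-values of 5.65e-04, 9.00e-04 and 3.54e-04.

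MRPL4, of bacterial descent, and MRPL42, specific to mitochondria, fell by 0.57 and 0.56 (limma adjusted p = 0.00206 and 0.00994). MRPL42 was the less even of these, with 9.59, 9.88 and 9.71 on the parental and 9.23, 9.36 and 8.91 on the resistant arrays. MRPL12, the stalk protein that recruits translation factors and has also been reported to bind the mitochondrial RNA polymerase, read 10.36, 10.47 and 10.52 against 10.01, 10.07 and 10.07. It fell by 0.40 (SE 0.08, 1.32-fold, limma adjusted p = 0.00434) without overlap. Of its partners at the stalk MRPL11 fell by 0.35 (adjusted p = 0.00896, limma), and MRPL10 stood at -0.13 (95% interval from -0.35 to 0.10).

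**Figure D3:**
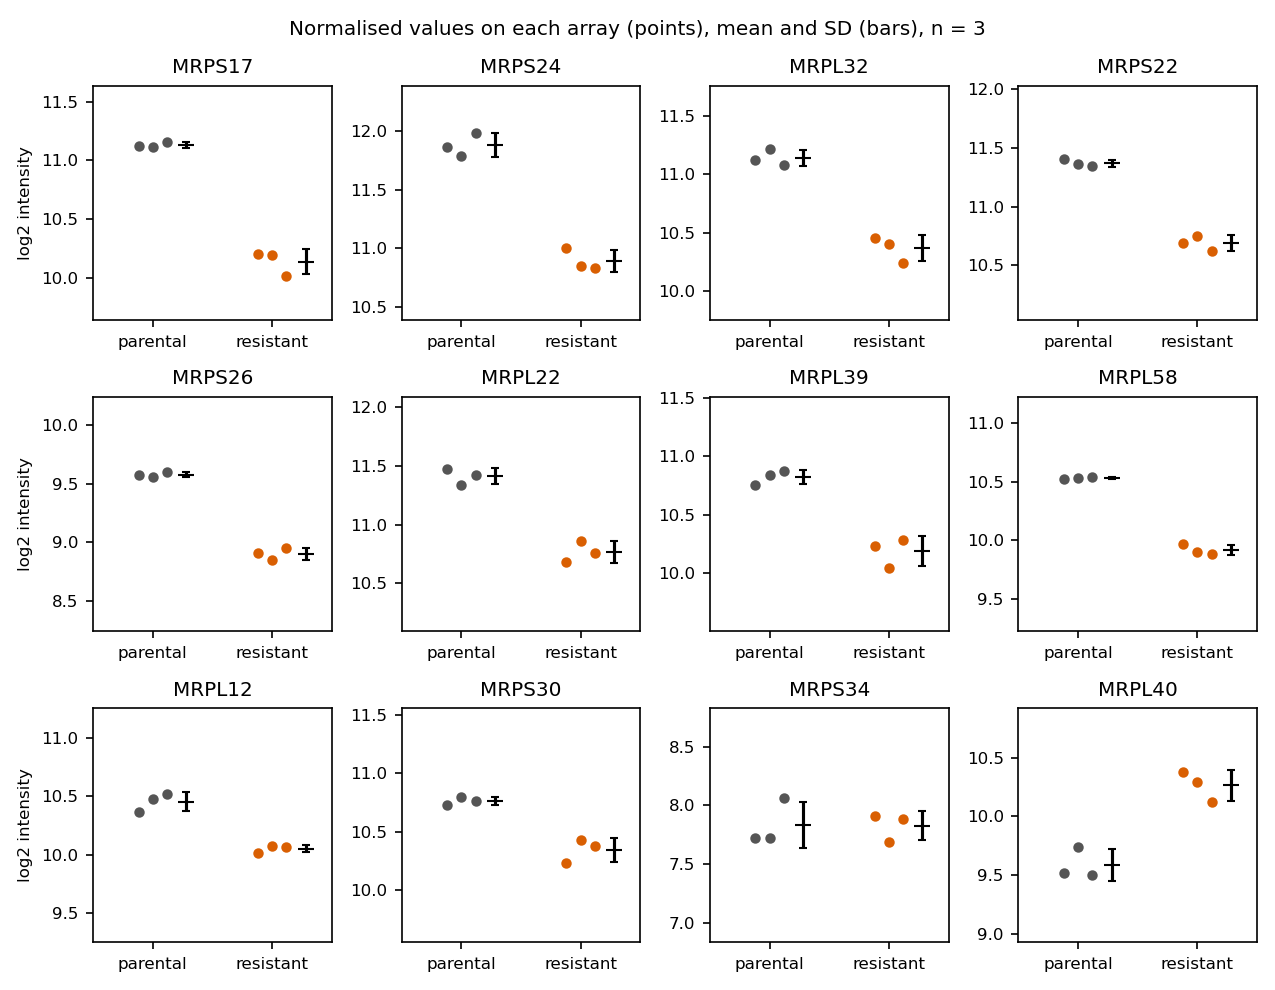
Normalised log2 intensity (vertical axis, a window of equal height for each gene) on each of 3 parental and 3 resistant arrays (points), with the mean and SD of each group (bars), for 12 members. In MRPS17, MRPS24, MRPL32 and the next 7 panels every resistant point lies below every parental point, the groups of MRPS34 overlap, and MRPL40 is reversed.

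MRPL40, a large subunit protein specific to mitochondria, was the only member called higher. Its values were 9.52, 9.74 and 9.50 on the parental arrays and 10.38, 10.29 and 10.12 on the resistant arrays. The rise was 0.68 on the log2 scale (SE 0.10, 1.60-fold, limma adjusted p = 0.00125), without overlap. MRPL14, of bacterial descent and chosen after its value was seen, came next at 0.25 (95% interval from 0.04 to 0.46), with 11.26, 11.35 and 11.36 against 11.42, 11.66 and 11.64. It was not called (adjusted p = 0.0542, limma), although its groups did not overlap, and it was called in 8 of 19 other settings.

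Other members of interest were not called. MRPS34, a small subunit protein specific to mitochondria, read 7.72, 7.72 and 8.06 against 7.91, 7.69 and 7.89, which gave -0.01 (95% interval -0.28 to 0.26). MRPL44, which has a ribonuclease III-like fold, stood at 0.16 (95% interval -0.12 to 0.44). In both genes the groups overlapped.

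The 3 MRPS18 genes encode related proteins that take different places in the ribosome. MRPS18C, the one at the place of the bacterial protein, was 11.39, 11.40 and 11.51 on the parental and 11.24, 11.12 and 10.92 on the resistant arrays, and fell by 0.34 (SE 0.10, limma adjusted p = 0.0239). It was no longer called in 4 of 19 other settings, which included leaving out resistant replicate 2 (0.0556), resistant replicate 3 (0.0697) or parental replicate 3 (0.0826). MRPS18B stood at 0.03 (95% interval -0.16 to 0.22), and its groups overlapped, as did those of MRPS18A. The differences between the 3 genes were not tested.

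Among the 76 members the groups did not overlap in 49. In 46 of these all resistant arrays lay below all parental arrays, which held for 28.6% of all genes, and in 3, MRPL40, MRPL14 and MRPS2, they lay above, which held for 27.4% of all genes. Every one of the 37 members called lower was among the 46. The 27 members with overlap had a median log2 difference of -0.04.

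Probes of one gene mostly moved the same way. Of the 110 probes 104 passed the detection filter, and of these 46 were called lower and 1 higher in a fit over 17843 probes, where 20.2% of all probes were called lower, 18.6% higher and 38.8% either way. Of the 23 genes with several kept probes, 8 had all probes lower, 8 had none called, and 7 had some lower and some not called. No gene had probes called in opposite directions. MRPL37, MRPL52 and MRPS28 were called lower in the fit over genes but not in the fit over probes, each by its only kept probe. Their adjusted p-values in the fit over probes were 0.0607, 0.0588 and 0.0656 (limma). In MRPL20, MRPL42 and MRPL18 the probes agreed to within 0.01 on the log2 scale (differences of 0.00253, 0.00245 and 0.00042).

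MRPL11, the stalk base protein of bacterial descent, differed most between its probes. The brightest (ILMN_2316540) gave a log2 difference of -0.35, the next (ILMN_1690371) -0.20, which was not called (adjusted p = 0.235, limma), and the dimmest (ILMN_1676458) -1.12 (adjusted p = 9.38e-04, limma). The dimmest probe read 6.19, 6.19 and 6.72 on the parental and 5.22, 5.31 and 5.20 on the resistant arrays, was detected on all 6, and was separated between the groups. The gene's value above is that of the brightest probe.

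MRPL43, MRPL55 and MRPL57, all specific to mitochondria, were not called by their brightest probe but had another probe called lower. In MRPL43 the brightest gave -0.15 and a second (ILMN_1700477) -0.39, in MRPL57 the brightest gave -0.08 and the other (ILMN_1774312) -0.38, and in MRPL55 they gave -0.19 and -0.29. In MRPL3, MRPL35 and MRPS27 the brightest probe was lower and the others were not called. Which transcripts each probe reads was not analysed here. MRPS12, a small subunit protein of the decoding site, had 4 kept probes, none called, from -0.15 to 0.33.

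**Figure D4:**
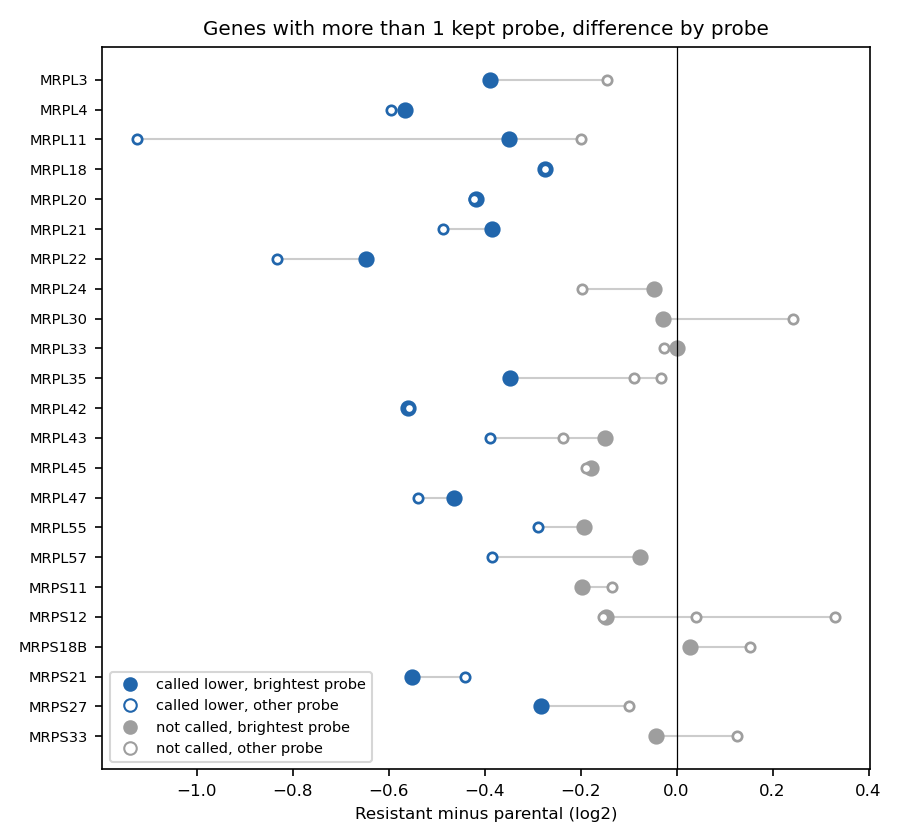
Log2 difference, resistant minus parental (horizontal axis), of each kept probe of the 23 members with more than 1, with the brightest probe filled and the others open, blue where called lower and grey where not called. Most genes have probes close together, MRPL11 spans from -1.12 to -0.20, and no probe on the panel was called higher.

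The size of a member's difference was related to that of the genes next to it on the chromosome. For each member the median log2 difference of the nearest tested genes was taken, 10 on each side in the order of the gene table, without other members. Across the 76 members Pearson's r between the member's difference and this median was 0.70 and Spearman's rho 0.62, given as a description, since neighbouring members share neighbours and all points share the 6 arrays. Without the members on chromosomes 7, 8 and 22, a subset chosen after seeing the data, r was 0.57 and rho 0.53 (68 members). Over all 10661 genes with a place in the table r was 0.32. Of the 19 members with the lowest neighbours, with medians from -0.63 to -0.13, 13 were called lower. Of the 19 with the highest, with medians from 0.14 to 0.39, 4 were called lower and 1 higher.

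Some members at the ends lie where neighbours moved the same way, and others do not. MRPS24 and MRPL32, both on chromosome 7, each had neighbours with a median of -0.63, and 13 of 19 and 14 of 19 of these were called lower. MRPS17, also on chromosome 7, had 10 of 20 neighbours lower and a median of -0.26. MRPS26 on chromosome 20 had 13 of 20 lower, with a median of -0.44. MRPL40 on chromosome 22, where 163 of 248 tested genes were higher and 6 lower, had 10 of 20 neighbours higher and none lower, with a median of 0.39. MRPS22, MRPL42 and MRPS16 had neighbours with medians of -0.31, -0.32 and -0.17, of which 10, 9 and 9 of 20 were lower. MRPL22, MRPL39, MRPS21 and MRPL4 fell where the neighbours' medians were near 0 (-0.08, -0.09, -0.02 and 0.02). Of their 20 neighbours each, 8, 6, 3 and 4 were lower and 2, 2, 3 and 3 higher, where 23.0% of all genes were lower. MRPL58 on chromosome 17 fell where the median was 0.16, with 3 of 19 neighbours lower and 4 higher. What part the chromosome has in any of these values was not tested.

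Most members lay below their neighbours. Of the 76 members 69 (90.8%) lay below the median of their neighbours, where 50.3% of all placed genes did, and all 28 small subunit genes did so. The median of the members' neighbours was 0.00 (-0.00226), and the median of member minus neighbours was -0.23. MRPL40 and MRPL14 were above their neighbours, as were MRPL36, MRPL43, MRPL17, MRPL57 and MRPL24, these names being chosen after the values were seen. Without the 8 members on chromosomes 7, 8 and 22, a choice made after seeing the data, 33 of 68 were lower (48.5%). None was higher, which this choice fixed, since MRPL40 on chromosome 22 was among those left out. The medians were -0.24 for 44 large and -0.22 for 24 small subunit genes. Chromosomes 2, 3 and 20, whose tested genes had medians of 0.24, -0.23 and -0.25, stayed in, so shifts shared along chromosomes were not removed.

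**Figure D5:**
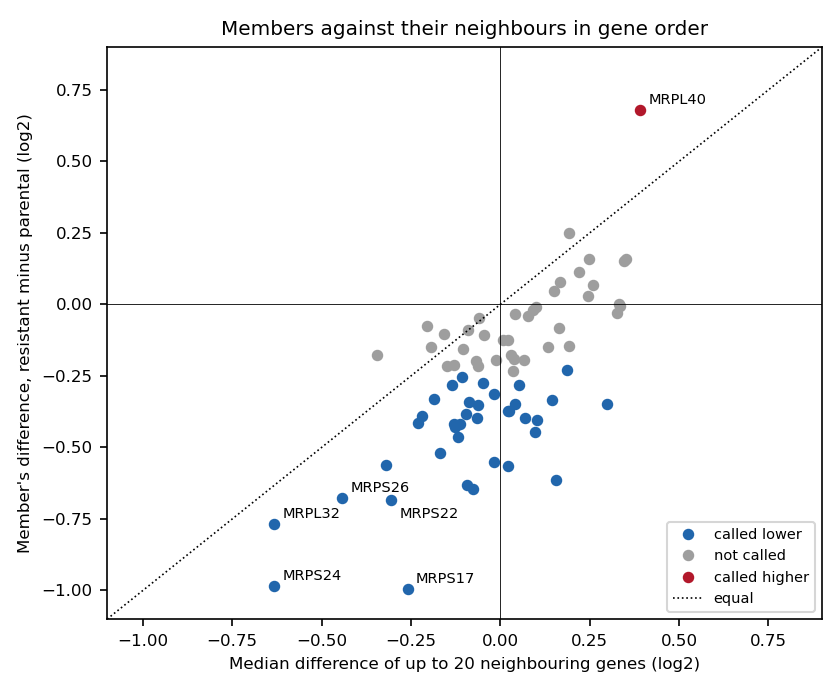
Log2 difference of each of the 76 members (vertical axis) against the median log2 difference of up to 20 neighbouring tested genes (horizontal axis), coloured by call, with the line of equal values dotted. Most members (69 of 76) lie below the line, MRPS24 and MRPL32 sit at the low end with neighbours at -0.63, and MRPL40 at the high end with neighbours at 0.39.

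Proteins of the mitochondrial ribosome without an MRP symbol were few. Of 5 listed, 3 were tested and 1 was called lower: CHCHD1, a small subunit protein, had a log2 difference of -0.26 (adjusted p = 0.0456, limma), but not in 7 of 19 other settings, which included leaving out resistant replicate 2 (0.121) or 3 (0.118), or parental replicate 2 (0.123) or 3 (0.135). DAP3, a GTP-binding small subunit protein, had -0.13 (95% interval from -0.35 to 0.08), and GADD45GIP1, a large subunit protein, had -0.01 (95% interval from -0.34 to 0.33).

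Assembly factors were lower more often than higher but went both ways. Of 27 tested 11 were lower (40.7%, against 23.0% of all genes) and 4 higher (14.8%, against 22.3%), with a median of -0.20. MRM2, a methyltransferase of the large ribosomal RNA, fell by 1.27 (SE 0.08, 2.42-fold), from a parental mean of 8.74 ± 0.01 to 7.47 ± 0.09 (SD, n = 3). GTPBP6, a GTPase of late large subunit assembly and recycling, fell by 1.27 (2.40-fold), and MALSU1, which keeps the assembling large subunit from joining the small one, fell by 0.97 (1.96-fold). MRM2 and MALSU1 are on chromosome 7, where 164 of 486 tested genes were lower and 102 higher. RCC1L, an assembly factor on the same chromosome named after its value was seen, rose by 0.34. MIEF1, a regulator of mitochondrial fission whose message also encodes a microprotein bound to the assembling large subunit, rose by 0.74 and lies on chromosome 22, as does MRPL40.

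Among factors that act with the ribosome, more were lower than higher. Of 17 mitochondrial translation factors tested 8 were lower (47.1%, against 23.0% of all genes) and 1 higher (5.88%, against 22.3%), with a median of -0.22. The elongation factors TSFM and GFM1 fell by 0.77 and 0.63, MTRFR, which rescues stalled ribosomes, fell by 0.62, and TACO1, an activator of translation of the cytochrome oxidase message, fell by 0.49. The factor that rose was MTIF3, of initiation (log2 difference 0.40), which was picked after the values were known.

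Among 18 tested genes of mitochondrial transcription and RNA handling 10 were lower (55.6%, against 23.0% of all genes) and 3 higher (16.7%, against 22.3%), with a median of -0.24. TBRG4 fell by 1.09 and lies on chromosome 7. TFAM, which packs the mitochondrial genome and helps to start its transcription, fell by 0.74. FASTKD5, an RNA processing factor, fell by 0.59, whereas FASTKD1 rose by 0.57. MTERF1, on chromosome 7 and named after its value was seen, rose by 0.43. POLRMT, the mitochondrial RNA polymerase, also named after its value was seen, rose by 0.32 (adjusted p = 0.0239, limma). TFAM went from 10.60 ± 0.04 to 9.86 ± 0.01 (SD, n = 3). Of 6 tested regulators of mitochondrial biogenesis, with a median of 0.02, 2 were lower (33.3%, against 23.0% of all genes) and 0 higher: the coactivator PPRC1 by a log2 difference of -0.50 and GABPB1, the partner of the ETS factor GABPA, by -0.45. GABPA itself had 0.06 (95% interval from -0.19 to 0.32), YY1 0.03 and MYC 0.09. The list held 9 regulators, all on the array, and NRF1 was not among the 6 tested.

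For cytosolic ribosomal proteins, read out on the same arrays, 6 of 73 tested genes were lower and 5 higher, with a median log2 difference of 0.03. Their share called lower was 8.22%, against 48.7% for the mitochondrial ones and 23.0% for all genes, and their share called higher was 6.85%, against 22.3% for all genes. The difference between the families was not tested.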

How the data were processed

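Total RNA of 3 parental and 3 resistant Ju77 samples, grouped by title, was made into biotin-labelled cRNA for Illumina arrays, per the labels' protocols. For each probe and array the deposited table holds an intensity with its detection p-value. In 3269 consecutive rows, none a member, these columns were exchanged and the intensity stood as a natural log in the deposited table, and the rows were restored. The deposited log2 values of the authors, in a second table, ranked the probes of each array as the intensities did (rank correlation 1), and how they were normalised is not stated in the labels.

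Intensities were background corrected with normexp from the detection p-values (offset 16), normalised between arrays by quantiles and log2 transformed (limma 3.58.1, R 4.3.3). Probes detected at p under 0.05 on all 3 arrays of a group were kept (17843). Gene symbols are those of the platform annotation after an update through Entrez identifiers (99.9% matched), where 30111 probes had 1 gene, 8 several and 17106 none. The brightest kept probe stands for a gene (10672 genes). The 2 groups were tested by limma's lmFit and eBayes, two-sided, with Benjamini-Hochberg adjustment at 0.05 over all genes, and again over all kept probes. Functions were tested on simulated data. Arrays of the same replicate number showed no shared deviation from their group means (correlations of -0.06, 0.01 and 0.06), and the main fit was unpaired. These correlations cannot show whether such arrays were handled together. No genome build is named for the arrays, so gene order alone was used, with promoter coordinates from RefSeq.

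The members and lists were chosen with earlier results of these data known. Named genes are, in each subunit, the 6 called members with the largest fall and the 6 with the largest rise, 11 members whatever their result, members with opposite probe calls (none), the 4 most changed called genes of each list of other mitochondrial genes, and all tested subunits without an MRP symbol.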

Additional observations from a re-analysis of the deposited data

How the results depend on the processing

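The counts over the array and over the members, the subunit medians and the genes named by rule were recomputed under 19 other settings of correction, normalisation, filter, probe choice, fit and left-out arrays. The neighbour values, the counts by ancestry, the counts without overlap, the subunit means per array and the counts of the other lists were not. Of the 37 members called lower 28 were lower in every one of the 19, no member was called in both directions, and of the members named by rule MRPS18C alone changed its call. With median scaling the median of all genes was -0.15, and there were 3774 genes lower and 1466 higher over the array in place of 2454 and 2384. It gave 36 large and 19 small subunit genes lower, 72 member probes called in place of 47, and medians of -0.39 and -0.43, or -0.23 and -0.28 relative to all genes. The large subunit median was -0.18 without background correction (-0.178) and with the deposited log2 values (-0.182). The number of large subunit genes higher was 2 in place of 1 without background correction, with offset 50 and with the deposited values. That number was also 2 at a detection p under 0.01, with detection on all 6 arrays, with array weights and with an intensity trend. It was 0 without chromosomes 7, 8 and 22, since MRPL40 was left out with them. Median scaling took DAP3 past the threshold (adjusted p = 0.0422, log2 difference -0.31, limma), and the causes of these changes were not tested.

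Leaving out each array in turn gave 19 to 22 large and 10 to 13 small subunit genes lower and 1 to 2 large subunit genes higher. In these fits 30 to 36 members and 33 to 44 member probes were called. Over the array 3941 to 4495 genes were called, 2004 to 2238 lower, in place of 4838 and 2454. The medians ran from -0.28 to -0.20 (large, -0.278 to -0.199) and from -0.29 to -0.22 (small, -0.286 to -0.216). With the replicate number as a block 32 members were called, 20 large and 11 small subunit genes lower. Over the array that fit called 4575 genes, 2318 of them lower. There MRPS18C (adjusted p = 0.0509, limma) and CHCHD1 (adjusted p = 0.0898, limma) lost their calls. The titles give replicate numbers without saying whether arrays of the same number were handled together. CHCHD1 also lost its call with cyclic loess (0.0577) and without the detection filter (0.0869). The difference between the subunit medians stayed between -0.0135 and 0.0434. No slide is given, so a slide block was not run. Signal over background limits the dim probes: 1 kept member probe, of MRPL43 (ILMN_1652147), was detected on only 1 of 3 resistant arrays.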
